A study of Mus musculus with 3 samples.

Results

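Matrix proteases and their inhibitors were examined in lymph node stromal cells that had been depleted of Eif4g3, which encodes the translation initiation scaffold eIF4GII. The 9 genes were taken by gene name from the array's non-control probes. They are Mmp2, Mmp3, Mmp13 and Mmp14 of the matrix metalloproteinases, Timp1, Timp2 and Timp3 of the tissue inhibitors of metalloproteinases, and the plasminogen activators Plat and Plau. They carry 14 of the 41174 probes and are 9 of the 27745 gene names on the array. Cultured lymph node stromal cells of the BALB/c strain received 400 pmol of Eif4g3 siRNA, against 400 pmol of control siRNA in the compared cells, and both were taken for lysis after 48 h. The contents of 7 plates were pooled for each siRNA, and each lysate was separated on a 10% to 60% sucrose gradient into a top, a light polysome and a heavy polysome fraction. Each fraction went onto 1 array of 2 colours, on which Cy5 marked the Eif4g3 siRNA cells and Cy3 the control siRNA cells. The dyes were not swapped, so dye and siRNA cannot be told apart.

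Matrix metalloproteinases are zinc enzymes, secreted or held at the cell surface, that cut collagens and other matrix proteins once an inhibitory propeptide has been removed. The inhibitors of the TIMP family block their active sites. Plasminogen activators turn plasminogen into plasmin, which cuts fibrin and can remove the propeptide of several metalloproteinases. In a lymph node, fibroblastic stromal cells make the collagen scaffold on which lymphocytes move and also these enzymes that remodel it. In a sucrose gradient, mRNAs with many ribosomes run into the heavy polysome fraction, those with few into the light one, and mRNAs free of ribosomes stay near the top.

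With 1 array per fraction and 1 pool per siRNA there was no replicate, so no p-value was computed and fraction and array cannot be told apart. A ratio is log2 of Eif4g3 siRNA over control siRNA signal within 1 array, after background correction and loess normalization. The ± after a ratio is the scanner software's error for the spots, which leaves out biological variation. A gene counted as measured where at least 1 probe was well above background in both channels, and as past threshold at 2-fold, a log2 ratio of 1 or -1. Loess places the middle of all genes near 0 on each array, so a shift of all mRNAs between fractions is invisible. In these bulk samples fewer cells of a type and less RNA per cell cannot be told apart. The siRNA target Eif4g3 had -0.43 ± 0.16 (top), -1.06 ± 0.16 (light) and -1.77 ± 0.19 (heavy). Of 16 fibroblastic stromal markers on the array, 13, 13 and 14 were measured in the top, light and heavy fractions. Des and Cxcl13 were not measured on any of the arrays by this rule on both channels, though Des had a control siRNA signal of 110.6 in the heavy fraction. Of 10 endothelial markers 0 to 3 were measured, of 10 leukocyte markers 1 to 5, without Ptprc, and of 5 epithelial markers 0 or 1. Of 5 smooth muscle and pericyte markers 3 or 4 were measured. The highest of them on each array was Cnn1, a smooth muscle actin-binding protein, with 0.86 (top), 0.64 (light) and 0.52 (heavy). Cspg4 had 0.31 (top), 0.39 (light) and 0.20 (heavy), and Acta2 -0.03, 0.33 and -0.12 in the same order. Myh11 had 0.05 (light) and -0.13 (heavy). The median ratio of the measured fibroblastic markers was -0.11 (top), 0.03 (light) and -0.33 (heavy), and that of the smooth muscle and pericyte markers 0.31, 0.36 and 0.04 in the same order. The summed signal of the fibroblastic markers before normalization was 39960, 505600 and 224000 in the top, light and heavy fractions of Eif4g3 siRNA cells, against 42530, 169600 and 664400 in control siRNA cells. For the smooth muscle and pericyte markers the sums were 40250, 492400 and 284000 in Eif4g3 siRNA cells, against 28120, 119000 and 531200 in control siRNA cells. The channels themselves differ in brightness, so the sums alone do not compare the siRNAs. Median signals over measured probes were 90 (top), 629 (light) and 306 (heavy) in Eif4g3 siRNA cells. In control siRNA cells they were 88, 262 and 891. The part of these markers, and of other cell types, in the results was not tested.

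All 9 genes were measured on all 3 arrays. In mm8 coordinates, the build of the files, their measured probes lie on chromosome 8 (Plat and Mmp2), 9 (Mmp13 and Mmp3), 10 (Timp3), 11 (Timp2), 14 (Plau and Mmp14) and X (Timp1). All of these map to the plus strand except the one of Timp2. Their place in exons or UTRs was not annotated here. Promoter sequences from RefSeq (GRCm38.p6), covering 250 bases before to 50 after the annotated start, matched 6 of the 9 genes: Mmp3, Mmp13, Mmp14, Timp1, Timp2 and Timp3. The 90 bases from -80 to 10 are shown for Mmp3 and Mmp13, which lie close together on chromosome 9 and had ratios of opposite sign in the polysomes, and for Timp1 and Timp3, whose ratios were opposite in the top fraction. Capitals mark matches, on either strand, to the AP-1 motif TGANTCA, the TATA motif TATAAA and the GC box GGGCGG.
Mmp3, chr9:7445742-7445831, plus strand: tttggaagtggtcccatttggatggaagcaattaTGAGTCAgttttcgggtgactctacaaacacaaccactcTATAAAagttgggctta
Mmp13, chr9:7272434-7272523, plus strand: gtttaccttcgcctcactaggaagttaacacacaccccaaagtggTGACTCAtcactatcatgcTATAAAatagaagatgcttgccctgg
Timp1, chrX:20870086-20870175, plus strand: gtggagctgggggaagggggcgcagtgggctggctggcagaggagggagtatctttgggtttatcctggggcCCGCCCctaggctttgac
Timp3, chr10:86300332-86300421, plus strand: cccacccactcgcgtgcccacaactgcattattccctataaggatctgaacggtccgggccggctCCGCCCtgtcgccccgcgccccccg
Mmp3 and Mmp13 each held 1 AP-1 and 1 TATA match and no GC box in the 300 bases searched. Mmp14 and the inhibitors held GC boxes and neither of the other motifs. Of 32851 such promoter windows, 7.81% held the AP-1 motif, 13.6% the TATA motif and 35.7% the GC box. The 3 motifs do not overlap one another in these windows. These matches are letters in a window and not shown binding sites.

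In the heavy polysome fraction the metalloproteinase and plasminogen activator mRNAs lay mostly below 0 after Eif4g3 siRNA, and Timp1 and Timp2 above 0. Of the 6 protease genes 5 were below 0, with a median of -0.70. Of the 3 inhibitors 1 was below 0, with a median of 0.19. The count of proteases below 0 was also 5 of 6 in the top and in the light fraction, with medians of -0.17 and -0.35. That of inhibitors was 1 of 3 in the top and 2 of 3 in the light fraction. Of all measured genes 49.6% were below 0 in the top and 47.4% in the light fraction. Over the 14397 genes measured in the heavy fraction the median was -0.01, and 51.7% were below 0. Of the 9 members 1, Plat, passed 2-fold, where 0.813% of all measured genes did so and 0.306% were lower by 2-fold or more. In the top fraction 0 of 9 members passed, where 0.695% of genes did, and in the light fraction 0 of 9, where 0.688% did. The median of the fibroblastic markers lay on the same side of 0 as that of the proteases in the heavy (-0.33) and top (-0.11) fractions. In the light fraction it was 0.03, on the other side of 0 from the protease median of -0.35.

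**Figure D1:**
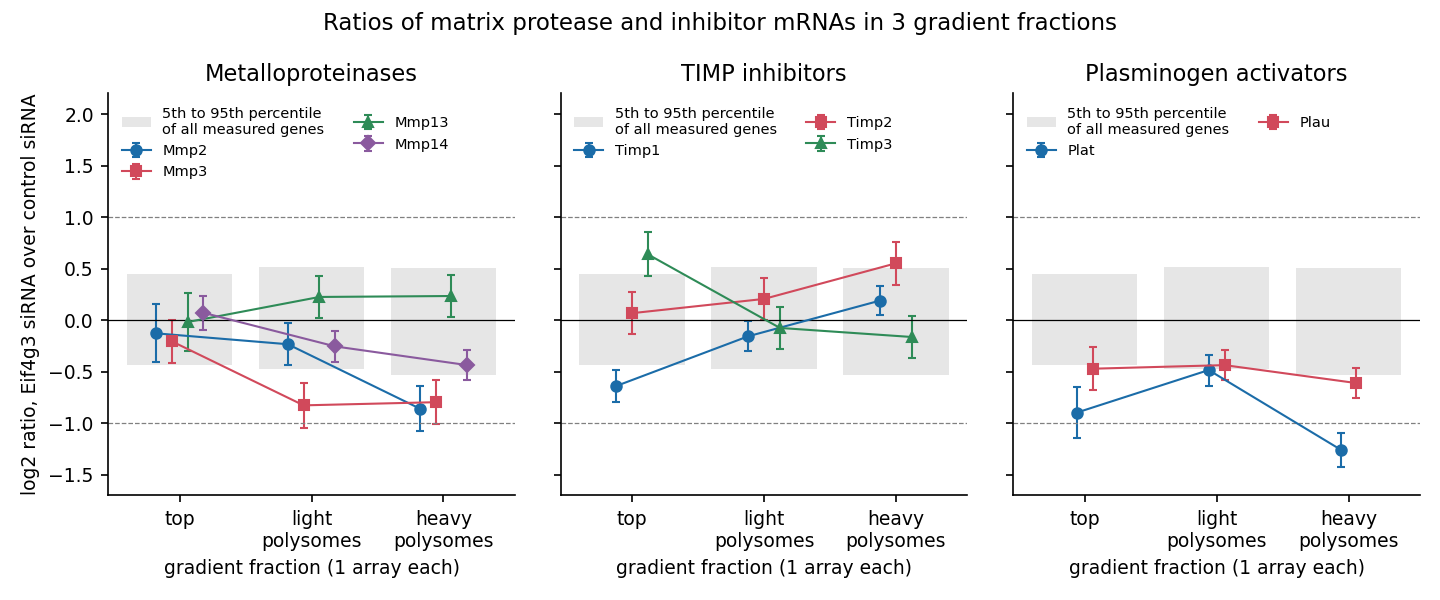
The y axis gives the log2 ratio (Eif4g3 siRNA / control siRNA) and the x axis the 3 gradient fractions, 1 array each, with a panel per role. Points are gene values with the spot error, grey boxes span the 5th to 95th percentile of all measured genes, and dashed lines mark 2-fold. Plat lies below the 2-fold line in heavy polysomes at -1.26, and Timp1 and Timp3 lie on opposite sides of 0 in the top fraction at -0.64 and 0.64.

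Plat encodes tissue plasminogen activator, a secreted serine protease. Before normalization its brightest probe read 96.77 (top), 2481 (light) and 1976 (heavy) in Eif4g3 siRNA cells, against 180.2, 1910 and 13370 in control siRNA cells. The channels differ in overall brightness, with background-subtracted medians over measured probes in the heavy fraction of 306 in Eif4g3 siRNA and 891 in control siRNA cells, so these signals are set against each other only after normalization. The normalized log2 ratio was -0.90 ± 0.25 (top), -0.48 ± 0.15 (light) and -1.26 ± 0.17 (heavy). The heavy value is a 2.39-fold fall and the 14th lowest of 14397 genes. The top value was the 46th lowest of 10934 genes. Plat was thus below the 5th percentile of all measured genes on all 3 arrays (-0.44 top, -0.47 light and -0.53 heavy). In the light fraction it was close to that mark, as the mean of probes at -0.11 and -0.85. The light value was -0.38 without loess and -0.29 without the background filter.

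Plat has 3 probes on chromosome 8 (mm8), at 24241374 to 24241433, 24247604 to 24247663 and 24248165 to 24248225. The first, designed to the cDNA AK053476, was not well above background on any of the arrays, and with it included the heavy value was -0.86. The other two gave -1.12 ± 0.22 and -1.39 ± 0.24 in the heavy fraction, so each passed 2-fold by itself. In the top fraction the third probe alone was measured, at 2.48 times local background in the Eif4g3 siRNA channel and 6.21 times in the control siRNA channel. The offset of 50 pulls such dim ratios towards 0. Without the offset the top value was -1.36, and the scanner software's own ratio was -1.48, both past 2-fold. At these settings 82 and 146 of 10934 genes were lower by 2-fold or more.

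Plau encodes urokinase, the activator that cells hold at their surface through the receptor Plaur. Its ratio was -0.47 ± 0.21 (top), -0.44 ± 0.15 (light) and -0.61 ± 0.15 (heavy). These are folds of 1.39 (top), 1.35 (light) and 1.53 (heavy), lower after Eif4g3 siRNA and short of 2-fold. Of all measured genes 4.23%, 6% and 3.09% were lower than Plau on the top, light and heavy arrays. Its measured probes lie at chr14:19629185-19629551 and chr14:19631572-19631631 (mm8), and the second alone was measured in the top fraction. Both activators were below 0 on all 3 arrays under all 6 alternative ways of computing the ratio. In the main setting 49.6% (top), 47.4% (light) and 51.7% (heavy) of all measured genes were below 0.

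Among the metalloproteinases, Mmp2 and Mmp3 had the lowest ratios in heavy polysomes. Mmp2, gelatinase A, cuts basement membrane collagen and denatured collagen. Its probe, at chr8:95742069-95742128 (mm8), read 59.37 (top), 1831 (light) and 1340 (heavy) in Eif4g3 siRNA cells before normalization, against 57.08, 928.9 and 6433 in control siRNA cells. The signal was lowest in the top fraction in both kinds of cells, where the medians over all measured probes were lowest too (90 and 88). The ratio was -0.13 ± 0.28 (top), -0.23 ± 0.21 (light) and -0.86 ± 0.22 (heavy). The heavy value is 1.81-fold lower, and 0.778% of measured genes were lower still. In the top fraction its 1 probe read 1.48 times local background in the Eif4g3 siRNA channel and 2.04 times in the control siRNA channel. At an offset of 0 the top value was -0.36, and the software gave -0.61.

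Mmp3, stromelysin, cuts proteoglycans and fibronectin and can activate other metalloproteinases. Its probe, at chr9:7455751-7455810 (mm8), read 136.6 (top), 1480 (light) and 879.7 (heavy) in Eif4g3 siRNA cells, against 138.5, 1144 and 4076 in control siRNA cells. The ratio was -0.20 ± 0.21 (top), -0.83 ± 0.22 (light) and -0.80 ± 0.22 (heavy). In the light fraction 0.688% of measured genes were lower than Mmp3. Plat lay above it there as the mean of its probes (-0.48) and near it by its brightest probe (-0.85). The heavy ratios of Mmp2 and Mmp3 lay within their spot errors of each other, and in the light fraction that of Mmp3 was lower by more than the spot errors. Without loess both passed 2-fold in the heavy fraction, at -1.06 and -1.01, where 116 of 14397 genes were lower by 2-fold or more.

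Mmp13 is the main interstitial collagenase of the mouse. It had -0.02 ± 0.28 (top), 0.23 ± 0.21 (light) and 0.23 ± 0.21 (heavy), each about as large as its spot error or smaller. It was the 1 protease above 0 in either polysome fraction, while Mmp3, close to it on chromosome 9, was below 0 there. Mmp14 is bound to the cell membrane, cuts fibrillar collagen and activates the Mmp2 proenzyme. It had 0.07 ± 0.16 (top), -0.25 ± 0.15 (light) and -0.44 ± 0.15 (heavy).

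The inhibitors differed from one another most in the top fraction. The downstream Timp1 probe read 44320 (top), 225200 (light) and 138800 (heavy) in Eif4g3 siRNA cells before normalization, against 62740, 101000 and 242400 in control siRNA cells. The Timp3 probe, at chr10:85778750-85778809 (mm8), read 5367, 39730 and 20560 in Eif4g3 siRNA cells, against 3306, 15700 and 53370 in control siRNA cells. In the top fraction Timp1 was thus dimmer and Timp3 brighter in the Eif4g3 siRNA channel. As ratios, Timp1, a secreted and inducible inhibitor, had -0.64 ± 0.15 (top), -0.16 ± 0.15 (light) and 0.19 ± 0.14 (heavy). Timp3, which binds to the extracellular matrix and also inhibits ADAM proteases, had 0.64 ± 0.21 (top), -0.08 ± 0.20 (light) and -0.16 ± 0.21 (heavy). Timp2, which takes part with Mmp14 in activating the Mmp2 proenzyme, had 0.07 ± 0.20 (top), 0.21 ± 0.20 (light) and 0.55 ± 0.21 (heavy). In the light fraction the signs of Timp1 and Timp3 turned without loess, to 0.33 and 0.31. In the top fraction the inhibitors spanned 1.28 log2 units, with 1.91% of measured genes below Timp1 and 97.7% below Timp3. In the heavy fraction Timp2 was the highest member, with 95.8% of measured genes below it.

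Signals of the inhibitor probes were far above local background in both channels. The Timp3 probe read 141 times background in the Eif4g3 siRNA channel and 116 times in the control siRNA channel on the top array. The 2 Timp1 probes, on the X chromosome (mm8) at 20029738 to 20029797 and 20031508 to 20031566, gave -0.72 ± 0.22 and -0.55 ± 0.22 there. The Timp1 value was thus on the same side of 0 with both probes in the top fraction. The sign of Timp2 in the top fraction turned with the software's ratio (-0.09).

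The genes with a pair of measured probes differ in how well the probes match. In the light fraction the downstream probe was lower than the upstream one for Plat (-0.85 against -0.11), Plau (-0.75 against -0.13) and Timp1 (-0.41 against 0.10). For Mmp14 the downstream probe was the higher one (-0.06 against -0.45). The SD of these pairs was 0.52 for Plat, 0.44 for Plau, 0.36 for Timp1 and 0.27 for Mmp14, where the median over all genes with several measured probes was 0.16. In the heavy fraction the same pairs had SDs of 0.19, 0.15, 0.10 and 0.23, with a median over all genes of 0.15. The light polysome values of Plat, Plau and Timp1 therefore rest on probes that differ by 0.51 to 0.74 log2 units, and the mean of the Timp1 probes hides opposite signs.

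**Figure D2:**
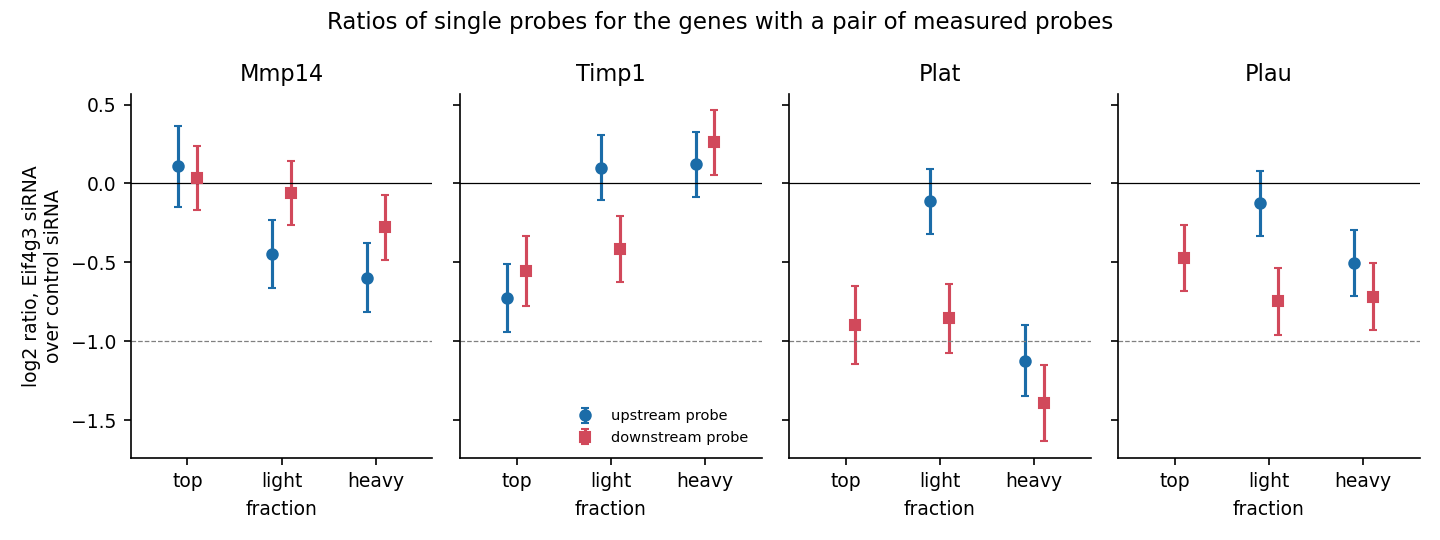
The y axis gives the log2 ratio (Eif4g3 siRNA / control siRNA) for single probes with the spot error, and the x axis the fraction. Circles are the upstream and squares the downstream probe of each gene, and a probe not well above background in both channels is left out. The probes of Plat, Plau and Timp1 lie apart in the light fraction, at -0.11 and -0.85 for Plat, and closer together in the heavy fraction.

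The difference of the ratio between the heavy and the top fraction asks whether an mRNA was placed differently along the gradient after Eif4g3 siRNA, relative to other mRNAs. It was 0.83 ± 0.21 for Timp1 and -0.80 ± 0.30 for Timp3. Of 10713 genes measured on both arrays, 97.8% were below Timp1 and 2.17% below Timp3. The ratio of Timp1 was 0.19 in the heavy and -0.64 in the top fraction, and that of Timp3 was -0.16 in the heavy and 0.64 in the top fraction. Timp2 had 0.48 ± 0.29. Of the 9 members 0 passed 2-fold in this difference, where 1.51% of all genes did so.

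The metalloproteinases had a median heavy minus top difference of -0.55 and the plasminogen activators -0.37, against 0.00 over all genes. Mmp2 had -0.73 ± 0.35, Mmp3 -0.59 ± 0.30, Mmp14 -0.51 ± 0.22 and Mmp13 0.25 ± 0.35. Plat had -0.49 ± 0.35 from its 1 probe measured on both arrays, and Plau -0.25 ± 0.30 likewise. With an offset of 0, Plat was at -0.03 and Mmp2 at -0.49. The software's ratio, which differs in background, offset and normalization together, put Plat at 0.06 and Mmp2 at -0.13. The values of the bright inhibitor probes moved little, to 0.95 for Timp1 and -0.95 for Timp3.

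**Figure D3:**
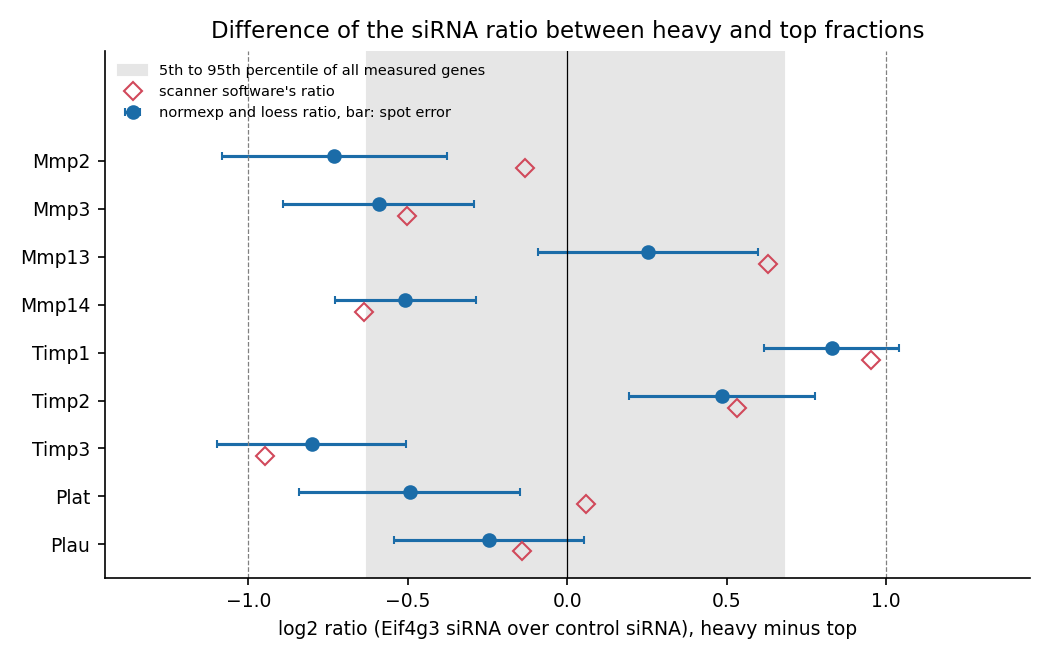
The x axis gives the heavy minus top difference of the log2 ratio (Eif4g3 siRNA / control siRNA), with 1 row per member. Filled points with bars are the background-corrected and loess-normalized values with the spot error, open diamonds the scanner software's ratio, and the grey band the 5th to 95th percentile of all measured genes. Timp1 at 0.83 lies above the band, Timp3 at -0.80 and Mmp2 at -0.73 lie below it, and the diamonds of Mmp2 and Plat lie at -0.13 and 0.06.

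Between the polysome fractions, the heavy minus light difference was -0.77 ± 0.22 for Plat and -0.62 ± 0.30 for Mmp2. Timp1 and Timp2 both had 0.35 (± 0.21 and ± 0.29). These sizes have no settled order. With the brightest probe of each gene Plat had -0.54 and Timp1 0.67, while Mmp2 kept -0.62. Without loess Plat had -1.07, past 2-fold, where 408 of 13686 genes were lower by 2-fold or more and 1177 higher. Timp1 and Timp2 then had -0.07 and -0.08, on the other side of 0. In the main setting 0 of 9 members passed 2-fold, where 0.731% of all genes did. The light minus top difference was 0.48 ± 0.21 for Timp1, -0.62 ± 0.30 for Mmp3 and -0.71 ± 0.30 for Timp3, and 0 of 9 members passed 2-fold, where 1.06% of all genes did. The heavy, light and top arrays are shared between these differences, which are therefore not independent.

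The place of each mRNA in the gradient was also taken per channel, as the heavy over top signal minus the median of all genes. Mmp2 stood furthest towards the heavy fraction among the proteases, with 2.19 in Eif4g3 siRNA and 2.93 in control siRNA cells. In control siRNA cells 99.5% of genes were below it. The top signal of Mmp2 was 1.48 (Eif4g3 siRNA) and 2.04 (control siRNA) times local background, which limits the size of these values. Plat had 1.43 in Eif4g3 siRNA and 1.94 in control siRNA cells, and Plau 1.0 and 1.26. Mmp14 had 0.58 in Eif4g3 siRNA and 1.1 in control siRNA cells. Mmp3 had -0.10 in Eif4g3 siRNA and 0.50 in control siRNA cells, and Mmp13 0.39 and 0.15. Of the 9 members 5 were at least 2-fold above the median in Eif4g3 siRNA and 6 in control siRNA cells, where 16.6% and 17.1% of all genes were. Plau lay just at that mark in Eif4g3 siRNA cells. With quantile normalization of all channels it had 0.91 there, and the counts were 4 and 6, where 16.5% and 16.9% of all genes were.

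The place of the inhibitors in the gradient was not settled. Timp1 had 2.52 in Eif4g3 siRNA and 1.70 in control siRNA cells, Timp2 2.06 and 1.59, and Timp3 -0.30 and 0.51. With processed signals scaled by the 75th percentile of each channel, Timp1 had 0.35 and -0.54, and Timp2 -0.26 and -0.73. That scaling moved the median of all genes to 0.82 in Eif4g3 siRNA and 0.79 in control siRNA cells before it was subtracted. With that scaling 2 of 9 members, Mmp2 and Plat, were at least 2-fold above the median in each kind of cell. Of all genes 21.6% were so in Eif4g3 siRNA and 21.8% in control siRNA cells. Timp3 had -1.26 in Eif4g3 siRNA cells, past 2-fold below the median, and -0.24 in control siRNA cells. Mmp2 then had 3.35 in Eif4g3 siRNA and 3.55 in control siRNA cells, and Plat 1.96 in both.

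**Figure D4:**
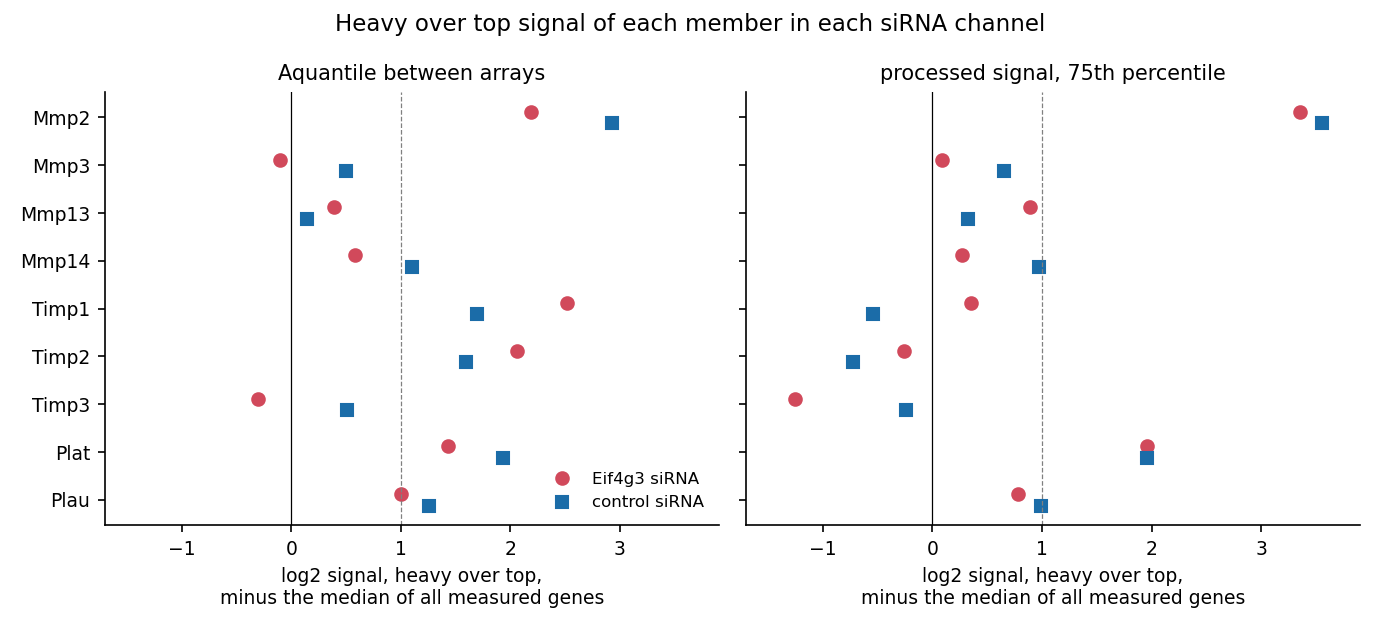
The x axis gives the log2 signal of heavy over top fraction minus the median of all measured genes, with 1 row per member, for Eif4g3 siRNA (circles) and control siRNA cells (squares). The left panel uses Aquantile normalization between arrays and the right panel processed signals scaled by the 75th percentile. Mmp2 and Plat lie beyond the dashed 2-fold line in both panels, while Timp1 and Timp2 change place between them.

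Other pericellular proteases and inhibitors had, as a list, a median ratio in heavy polysomes near that of all genes. Of 63 listed genes 61 were on the array and 38 were measured in the heavy fraction, with 23 below 0, 15 above 0 and a median of -0.08. Of the measured genes of the list 0 passed 2-fold on any of the 3 arrays, where 0.813% of all genes did in the heavy, 0.688% in the light and 0.695% in the top fraction. Lowest in the heavy fraction were Adam19, a membrane-bound metalloprotease (-0.73 ± 0.12), and Adamts9, a secreted proteoglycan protease (-0.51 ± 0.21). Highest were Pcolce2, an enhancer of procollagen processing (0.91 ± 0.22), and the stromelysin Mmp10 (0.41 ± 0.21). By group, those below 0 in the heavy fraction were 9 of 9 measured ADAMTS genes (6 of 9 without loess) and 6 of 9 ADAM genes. They were 3 of 6 other metalloproteinases, 2 of 5 astacins and enhancers and 2 of 4 other pericellular enzymes. In the plasminogen system 1 of 4 genes was below 0, and of other inhibitors 0 of 1, where 51.7% of all genes were. With the software's ratio the plasminogen system had 3 of 4 below 0, ADAM genes 7 of 9, ADAMTS genes 8 of 9 and other metalloproteinases 2 of 6.

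In heavy minus top the list had a median of -0.08 over 25 genes, with 13 below 0. Adam19 had -0.53 ± 0.21, among the lowest. Pcolce2 (0.82 ± 0.30) and the serine protease Prss23 (0.73 ± 0.29) were the highest.

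**Figure D5:**
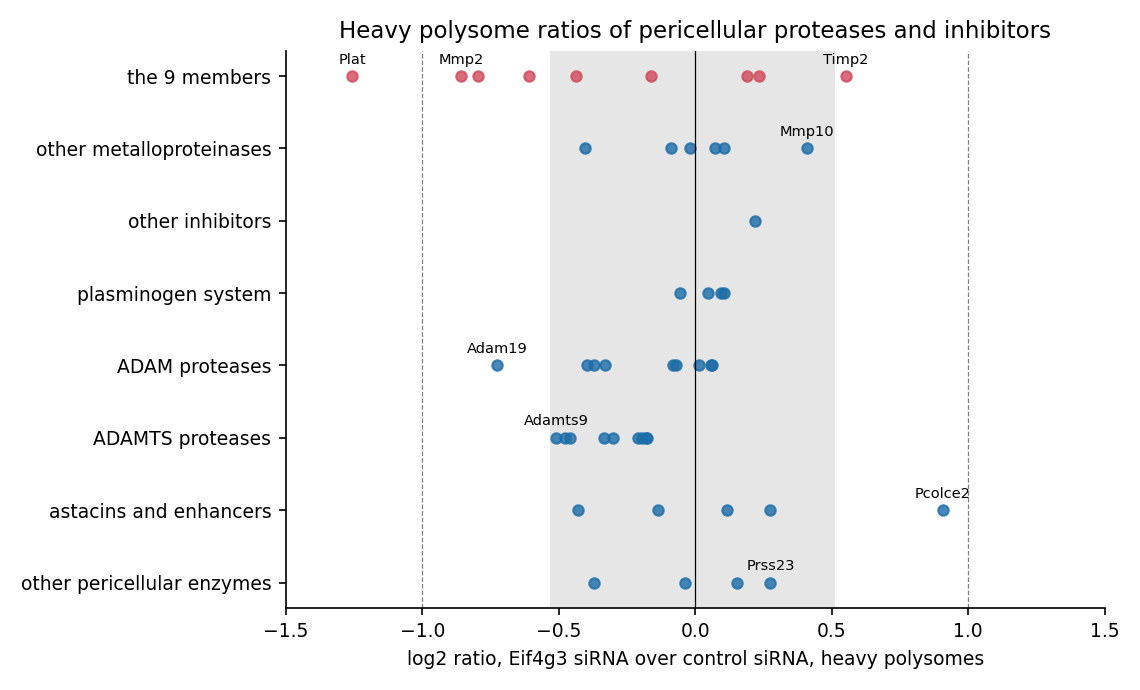
The x axis gives the log2 ratio (Eif4g3 siRNA / control siRNA) in heavy polysomes, with 1 point per gene and 1 row per group. The grey band spans the 5th to 95th percentile of all measured genes and dashed lines mark 2-fold. Plat at -1.26, in the row of the 9 members, is the point beyond 2-fold, and Pcolce2 at 0.91 lies furthest to the right.

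Plat was the member past 2-fold on an array, and the genes with the most similar ratios were sought for it over the 3 arrays. Among 3827 named genes measured in each fraction and at or above the median signal, the nearest by Euclidean distance were Osmr, a receptor for oncostatin M (0.38), the histone chaperone gene Asf1b (0.42) and the lipase gene Abhd4 (0.46). Osmr had -0.56 (top), -0.45 (light) and -1.08 (heavy). With 3 values per gene this likeness describes these arrays only.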

How the data were processed

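The authors deposited scanner output in which, per the file headers (Feature Extraction 10.5.1.1, Agilent), every spot has a linear intensity in both channels. Per the file headers, the same output gives each spot a log10 ratio, red over green, with the software's error score. The p-value that the software gives for single spots was deposited too and not used. A deposited value table holds log2 of red over green processed signals (largest difference from the scanner output 2.8e-06, medians -0.09 for top, -0.01 for light and 0.22 for heavy), which settled its direction, scale and lack of further centring.

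Mean signals and median local backgrounds were corrected with normexp (offset 50) and normalized by loess within arrays, controls at weight 0, with limma 3.58.1 in R 4.3.3. Spots with outlier marks were left out. No spot was saturated. Repeated spots were averaged, then measured probes of a gene name. Of all probes 34.8%, 50.2% and 51.6% were measured on the top, light and heavy arrays. Regressed on the software's values, these ratios had slopes of 0.571, 0.718 and 0.721 (top, light and heavy) and are more compressed on the top array. The spot error is that of the software's ratio and was not rescaled. The median SD of repeated spots was 0.07, 0.06 and 0.09. Signals per channel were taken after Aquantile normalization between arrays. The number of arrays limits the precision. The background correction and loess were tested on simulated data, and the later steps were not.

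The members, lists and tests were chosen with earlier results of these data known. Named were all members, Eif4g3, genes of the wider list past 2-fold or among its 2 highest and 2 lowest in heavy or heavy minus top, and the 3 nearest genes of members past 2-fold; 1 gene that this rule names is not reported here. Cnn1, Cspg4, Acta2, Myh11, Ptprc and 2 unmeasured stromal markers were named after their values were seen.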

Additional observations from a re-analysis of the deposited data

Results flagged for a closer look

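Timp1 had ratios on opposite sides of 0 in different fractions, each beyond its spot error in the main setting. Its log2 ratio (Eif4g3 siRNA / control siRNA) was 0.19 ± 0.14 in the heavy and -0.64 ± 0.15 in the top fraction, a difference of 0.83. The heavy value was 0.10 by the software's ratio and 0.12 at an offset of 0, both within the spot error. The upstream probe, with 0.12 ± 0.20 in the heavy fraction, was within its error too. The difference between the heavy and light fractions was 0.35, with -0.16 ± 0.15 in the light fraction, and it was -0.07 without loess. Each fraction is 1 array, so these differences were not tested. The 2 Timp1 probes had the same sign as each other in the heavy and top fractions and opposite signs in the light fraction.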

How the results depend on the processing

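Each ratio was recomputed under 6 alternatives. In heavy polysomes each of the 9 members kept its side of 0 under all that gave a value. Past 2-fold in the top fraction was 1 member (Plat) in place of 0, once the offset was 0 or the software's ratio was taken. Of 10934 genes there, 109 passed upward and 82 downward at an offset of 0. By the software's ratio 151 passed upward and 146 downward. In the heavy fraction 3 members passed without loess (Plat, Mmp2 and Mmp3) in place of 1. Over all 14397 genes 219 then passed upward and 116 downward. Without the background filter, where the undetected Plat probe enters the mean, 0 members passed. Of 27733 genes 65 then passed upward and 36 downward. In heavy minus light 1 member (Plat) passed without loess, where 1177 of 13686 genes passed upward and 408 downward. The median over members moved to -0.13 in heavy minus top (from -0.49) and to 0.24 in light minus top (from -0.11) with the software's ratio, and to -0.41 in heavy minus light (from -0.09) without loess. Of the wider list 2 of 36 genes passed 2-fold in the light fraction with the software's ratio (Mmp24 and Adamts9), in place of 0. Of all 14093 genes there, 148 passed upward and 156 downward. Without loess 1 of 36 passed (Serpinb2), where 149 of all genes passed upward and 31 downward. For the heavy over top signal, 75th percentile scaling moved the median over members to 0.35 in Eif4g3 siRNA and 0.66 in control siRNA cells, from 1.0 and 1.26. It reversed Timp2 in Eif4g3 siRNA cells (-0.26) and Timp1 (-0.54) and Timp2 (-0.73) in control siRNA cells. Timp3 in control siRNA cells changed side too, from 0.51 to -0.24, and Mmp3 in Eif4g3 siRNA cells from -0.10 to 0.09. The cause was not tested. Calls over all genes in the heavy fraction were 73 up and 44 down. The software's ratio gave 252 up and 102 down, and omitting loess 219 up and 116 down. The upward share of calls was 57.7% in the light fraction and 82.8% without loess, 61.8% in the top fraction and 50.8% by the software's ratio, 53.7% in heavy minus top, 66% by the software's ratio and 38.8% without loess, and 14% in heavy minus light and 74.3% without loess. Mmp2, Mmp13 and one Mmp14 probe are near local background on the top array, which limits their top values. Leaving out a replicate was not possible with 1 array per fraction. No paired analysis was possible because each fraction has 1 array and no replicate.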

Other observations

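Plaur and Serpinb2, of the plasminogen system, were chosen after their values were seen. Plaur, the urokinase receptor, had a log2 ratio (Eif4g3 siRNA / control siRNA) of -0.60 (top), 0.30 (light) and 0.11 (heavy), and a heavy minus top difference of 0.71 ± 0.21. Serpinb2, an inhibitor of plasminogen activators, had -0.16 (top), 0.76 (light) and 0.10 (heavy). None of these values passed 2-fold, and with 1 array per fraction the differences were not tested.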
